A study of Mus musculus with 4 samples.

Results

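The sensors of endoplasmic reticulum (ER) stress and the transcription factors tied to them are described here in the cerebellum of mice that lack Derlin-2 in the nervous system. The set holds 8 genes: Ern1, Eif2ak3, Atf6, Atf6b, Xbp1, Creb3, Creb3l1 and Creb3l2. They were taken as every non-control probe whose RefSeq accession names one of these genes, which gave 11 of the 56605 probes on the array, or 8 of the 22911 genes that could be named. Xbp1 had 3 probes, Creb3 had 2 and each other gene had 1. All 11 probes were well above background on all 4 arrays, so no member was lost to the filter on dim probes.

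The tissue was cerebellum of C57BL/6 mice at postnatal day 28, and total RNA of 2 control and 2 knockout (KO) samples was hybridised to 1 one-colour Agilent array each. Control mice were Derlin-2flox/flox, with floxed Derl2 and, per the labels, no Cre named. KO mice came from crossing Derl2flox/flox mice with mice that express Cre recombinase from the nestin promoter, which is active in the precursors of neurons and glia, so that blood, endothelial and microglial cells are not its main target. The labels number the samples but do not tie each to an animal, so p-values measure the spread between these samples, which may be partly technical. Values are log2 of the scanner's processed signal minus the 75th percentile of that array. A value of 0 therefore lies at the array's upper quartile, and a difference of 1 is a 2-fold change. The level of one probe cannot be set against that of another, because probes differ in how well they bind.

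The ER holds proteins while they fold, and cells watch its load through 3 membrane proteins. IRE1 (gene Ern1) is a kinase and RNase that cuts a short intron out of Xbp1 mRNA, which then encodes an active transcription factor. PERK (Eif2ak3) phosphorylates eIF2alpha, which slows translation in general and favours that of ATF4. ATF6 and ATF6B travel to the Golgi when stress is sensed and are cut there to release a transcription factor, and CREB3, CREB3L1 and CREB3L2 are membrane-bound factors cut by the same proteases. Derlin-2 is a membrane protein of the degradation route that removes misfolded proteins from the ER.

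The arrays differed little in quality. Between 66.4% and 69.4% of spots were well above background and 0 were saturated. Derl2 itself was lower on both KO arrays with both of its probes, at 37.6% and 30.2% of the control signal. Whether these probes lie in the deleted part is not stated in the sources used here. The array of control replicate 1 carried 1441 spots on or near patches of raised local background, against 34, 0 and 0 on the others. The array of control replicate 2 stood apart in choroid plexus markers, whose summed signal was 7.10 on the log2 scale there and between 2.89 and 2.97 on the other 3. All 6 such markers were highest on that array. Controls lay at the first positions of the slide and KO samples after them, so position and group cannot be told apart. In whole tissue, fewer cells of a type and less RNA per cell cannot be told apart either.

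The factors of these branches read short sites in promoters, and those sites are shown first because the target genes described further on are grouped by them. The ER stress response element (ERSE) is CCAAT, then 9 bases of any kind, then CCACG. Its first part is bound by the general factor NF-Y and its last part by ATF6 or XBP1. Searched on both strands in the 250 bases before each annotated gene start, it was found in 37 of 32851 RefSeq promoters of build GRCm38.p6 (0.113%). Of the listed ATF6 targets, 9 had a promoter and 6 of these held an ERSE. Of the IRE1-XBP1 targets, it was 2 of 9. The sites are printed in the direction of the motif with the fixed letters in capitals.
Calr (chr8:84847070-84847098, plus strand): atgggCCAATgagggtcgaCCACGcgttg
Creld2 (chr15:88819515-88819543, minus strand): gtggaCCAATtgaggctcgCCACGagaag
Derl3 (chr10:75893237-75893265, minus strand): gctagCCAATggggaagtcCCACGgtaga
Dnajc3 (chr14:118937822-118937850, plus strand): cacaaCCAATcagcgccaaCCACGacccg
Hsp90b1 (chr10:86705528-86705556, plus strand): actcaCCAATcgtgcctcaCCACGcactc
Hsp90b1 (chr10:86705633-86705661, minus strand): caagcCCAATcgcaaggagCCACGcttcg
Hspa5 (chr2:34772020-34772048, plus strand): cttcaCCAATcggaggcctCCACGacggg
Pdia6 (chr12:17266486-17266514, plus strand): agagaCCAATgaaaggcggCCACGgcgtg
Syvn1 (chr19:6046527-6046555, plus strand): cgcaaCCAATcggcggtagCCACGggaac

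These lists were drawn from textbook targets, so the share that holds the element describes the lists and is no test of them. Hsp90b1 had 2 sites. The related ERSE-II, which is ATTGG, 1 base of any kind and CCACG, was found in 10 of all promoters (0.0304%), and Herpud1 was the 1 list gene with it. Its parts are those of the ERSE, with ATTGG being CCAAT on the other strand, and both could share a CCACG, but no list gene held both. The 8-letter element TGACGTGG, preferred by XBP1, was in 0.563% of all promoters, and Sec24d was the only list gene with it. The amino acid response core TGATGNAA, read by ATF4, was in 3.45% of all promoters. It was found in 5 of 12 genes of the PERK-eIF2alpha-ATF4 list (Chac1, Atf3, Asns, Vldlr and Slc7a11) and in 1 of 9 ATF6 targets, Herpud1.

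Among the 8 sensor and factor genes, 6 had a promoter in the RefSeq table, and 0 of the 6 held any of these 4 elements. The promoters of Xbp1 and Eif2ak3 are printed because these were the members with both KO values above both control values. CCAAT and CCACG on either strand are in capitals (as ATTGG and CGTGG on the opposite one), and each sequence ends where the gene's first annotated transcript begins.
Xbp1 (chr11:5520391-5520640, plus strand): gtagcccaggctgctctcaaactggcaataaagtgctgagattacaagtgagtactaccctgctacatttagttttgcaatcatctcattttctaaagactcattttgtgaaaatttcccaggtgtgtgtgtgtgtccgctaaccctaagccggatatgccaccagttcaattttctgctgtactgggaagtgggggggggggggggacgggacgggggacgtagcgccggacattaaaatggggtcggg
Eif2ak3 (chr6:70844265-70844483, plus strand): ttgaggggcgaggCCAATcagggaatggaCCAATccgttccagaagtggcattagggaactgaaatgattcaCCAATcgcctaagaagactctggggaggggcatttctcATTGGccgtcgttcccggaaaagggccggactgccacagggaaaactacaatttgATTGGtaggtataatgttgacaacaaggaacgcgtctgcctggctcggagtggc

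The Xbp1 stretch held neither CCAAT nor CCACG in its 250 bases. That of Eif2ak3 held CCAAT 5 times in 219 bases, 3 of them on the gene's own strand, and no CCACG. A missing match says only that these letters are not in this window.

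Xbp1, the factor downstream of IRE1, had the highest difference of the 8 genes, and all 3 of its probes were higher in both KO samples. On its brightest probe the controls read 4.82 and 4.78, and the KO samples 5.58 and 5.41. Both KO values lay above both controls, and the gap was several times the spread within either group. The means were 4.80 ± 0.027 (SD, n = 2) and 5.50 ± 0.12 (SD, n = 2). The log2 difference was 0.70 (SE 0.11; limma unadjusted p 0.0027, adjusted p 0.273), which is 1.62-fold with a 95% interval from 1.31 to 2.01.

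The other 2 Xbp1 probes gave the same picture. One read 0.94 and 0.75 in control and 1.76 and 1.54 in KO, and was higher by 0.81 (SE 0.14; limma adjusted p 0.273), or 1.75-fold. The last read 0.47 and 0.35 in control and 1.29 and 1.02 in KO, and was higher by 0.74 (SE 0.14; limma adjusted p 0.273), or 1.67-fold. On each of the 3 probes the KO and control values did not overlap. The smallest difference between any KO and any control array was 0.54 and the largest 1.01. Probe sequences were not used here, so the values do not separate the spliced from the unspliced form of the mRNA.

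Xbp1 stood well above the bulk of the array without passing the adjusted threshold. With the brightest probe of each of 16524 genes, 170 genes had a higher difference than Xbp1. The median difference of all genes was −0.06. The difference kept its sign under all 16 alternatives, between 0.61 and 0.79. Some of these could not move it: other filters on dim probes, another variance model and the replicate block left it at 0.70. With all 4 arrays kept, its limma adjusted p was 0.188 with normexp background correction and 0.554 with no filter on dim probes. Without control replicate 2, the array rich in choroid plexus RNA, it was 0.68, and without control replicate 1 it was 0.72.

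Ern1, which encodes the IRE1 sensor itself, differed little between the groups, which overlapped. Its signal was −2.53 and −2.64 in control and −2.31 and −2.61 in KO. KO replicate 1 was the highest and KO replicate 2 lay between the controls. The difference was 0.13 (SE 0.15; limma adjusted p 0.706), with a 95% interval from −0.26 to 0.52. Without KO replicate 1 it was −0.02, so its sign rests on that sample. With quantile normalization or scaling to spike-in probes both KO values lay above both controls. The same held for 18.4% of all genes with quantile normalization and for 26.1% with spike-in scaling.

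Eif2ak3, which encodes the PERK sensor, showed a small difference with little scatter. It read 0.90 and 0.82 in control and 1.05 and 1.05 in KO, so that both KO values lay just above both controls. Its KO values differed from each other by 0.003 and its control values by 0.082. The difference was 0.19 (SE 0.10; limma unadjusted p 0.125, adjusted p 0.457), 1.14-fold with a 95% interval from 0.95 to 1.38. Of all genes, 1795 had a higher difference. The groups stayed apart under all 10 ways of scaling and filtering that kept the 4 arrays, with a difference between 0.14 and 0.28 over all 16 alternatives. The 10 include the main one, and the filters on dim probes leave the values of Eif2ak3 unchanged, so those are no check. Under those 10 ways, between 13.2% and 26.1% of all genes had both KO values above both controls.

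The 2 ATF6 genes were slightly lower in KO, with overlapping groups. Atf6 read 0.38 and 0.26 in control and 0.28 and 0.17 in KO, a difference of −0.10 (SE 0.11; limma adjusted p 0.710). Atf6b, which encodes a close relative of ATF6 with weaker activating power, read −0.20 and 0.04 in control and −0.14 and −0.34 in KO. Its difference was −0.16 (SE 0.14; limma adjusted p 0.637). The intervals ran from −0.40 to 0.20 for Atf6 and from −0.55 to 0.23 for Atf6b, so a difference as high as that of Xbp1 lay outside both. Both were close to the median of all genes, −0.06.

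Creb3, the first of the CREB3-like factors, was slightly lower in KO on both of its probes. Creb3 (also called Luman) read 2.19 and 2.26 in control and 2.08 and 2.10 in KO on its brighter probe. Here both KO values lay below both controls. The difference was −0.13 (SE 0.10; limma adjusted p 0.579). Its other probe read 1.72 and 1.54 against 1.5 and 1.56, where the groups overlapped, with a difference of −0.11 (SE 0.12; limma adjusted p 0.695).

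Creb3l1 (OASIS), known from bone-forming cells and astrocytes, had controls that were far apart. Its signal was −1.25 and −0.62 in control and −0.89 and −0.62 in KO. The higher value was nearly the same in both groups, and the groups overlapped. The difference was 0.18 (SE 0.25; limma adjusted p 0.764), with an interval from −0.49 to 0.85. It was 0.49 without control replicate 2 and −0.13 without control replicate 1.

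Creb3l2 (BBF2H7), which drives secretory genes in cartilage, had the lowest mean difference of the set, and it came from 1 array. It read −1.18 and −2.65 in control and −2.79 and −2.50 in KO. Control replicate 1 stood 1.47 above control replicate 2, while the other 3 arrays lay close together. On control replicate 1 this spot lay on a patch of raised background, with a local background of 46.5 intensity units against an array median of 25.0. On the other 3 arrays its local background was between 24.0 and 30.0. The difference was −0.73 (SE 0.51; limma adjusted p 0.552). Without control replicate 1 it was 0.003, and with patch spots left out no value remained for that array.

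**Figure D1:**
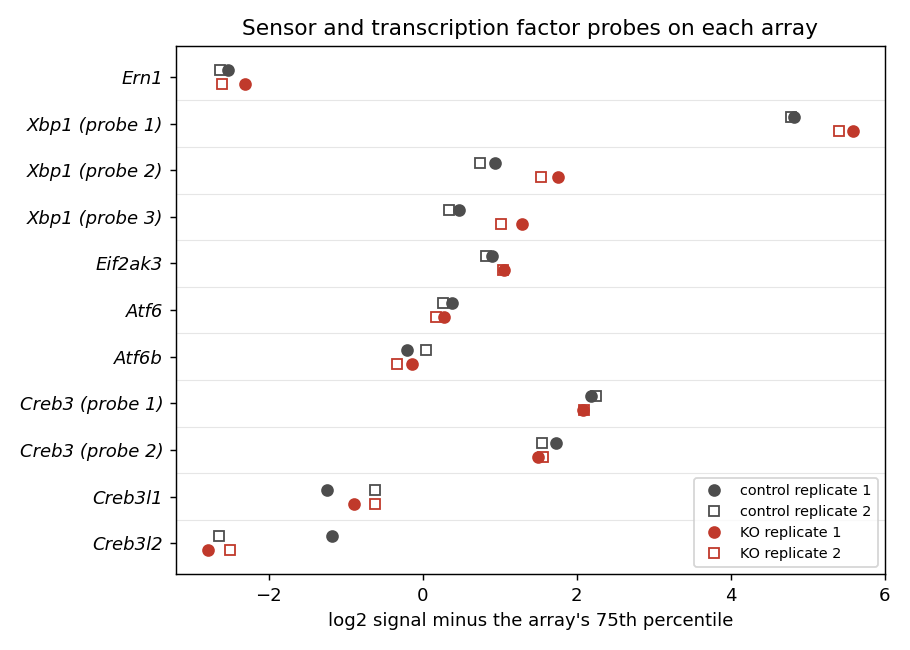
Log2 signal minus the array's 75th percentile (horizontal axis) for each of the 11 probes (rows), with 1 point per array; grey is control, red is KO, filled circles are replicate 1 and open squares replicate 2. The 3 Xbp1 probes are shifted to the right in both KO samples, Eif2ak3 is shifted slightly, and for Creb3l2 control replicate 1 at −1.18 lies far from the other 3 arrays.

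The members were then counted against the background of the arrays. At a limma adjusted p under 0.05, 0 of 11 probes were called, as were 0 of all 37516 probes tested. Of all probes, 5265 (14%) had an unadjusted p under 0.05. In the KO samples, 3 of the 11 probes were higher at an unadjusted p under 0.05, all of them Xbp1, against 8.84% of all probes. None was lower at that level (0 of 11), against 5.2% of all probes. Both KO values lay above both controls on 4 of the 11 probes (22.5% of all) and below them on 1 of the 11 (26.9% of all). The 3 Xbp1 probes stand for 1 gene. By brightest probe, 1 of 8 genes was higher at a limma unadjusted p under 0.05 (3.16% of all genes) and 0 were lower (5.65%). Both KO values lay above both controls for 2 of the 8 (13.8% of all genes) and below them for 1 (32.1%). Apart from Xbp1, then, the members were not called more often than the array as a whole.

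**Figure D2:**
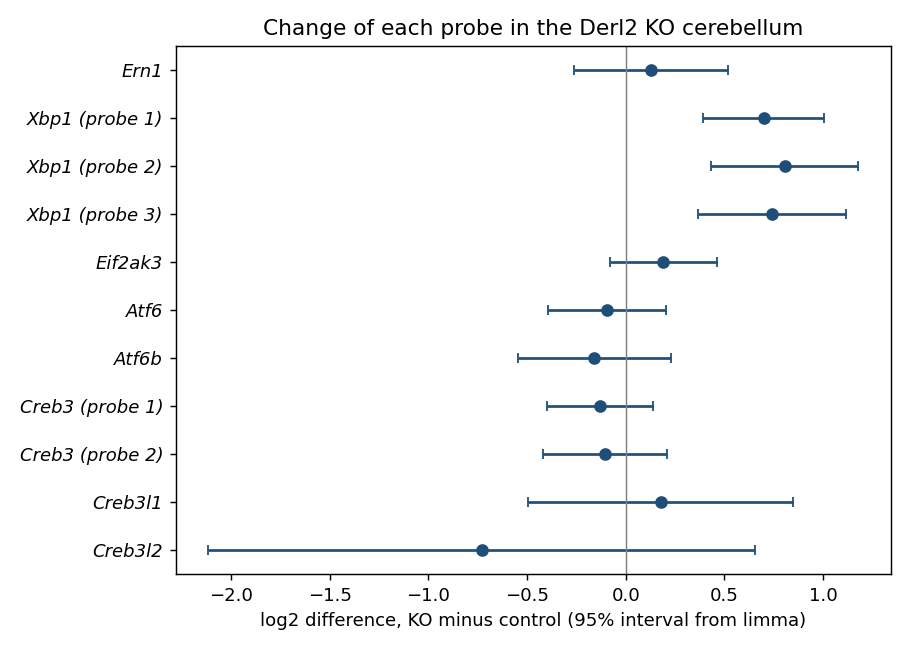
KO minus control log2 difference (points) with the 95% interval from the limma fit (bars) for the 11 probes. The intervals of the 3 Xbp1 probes lie above 0, the lowest bound being 0.37, and those of the other 8 probes include 0.

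To compare the mRNAs of the branches, the change of Xbp1 was set against that of each other member within the same arrays. This sets mRNA levels side by side and does not measure how active a branch is. Xbp1 had the highest difference of the set, so its change had to exceed that of the 7 others, and the direction is no separate result. The gap was 0.57 for Ern1, 0.51 for Eif2ak3, 0.80 for Atf6, 0.86 for Atf6b and 0.83 for Creb3. It was 0.52 for Creb3l1 and 1.43 for Creb3l2. The Creb3l2 gap rests partly on the patch spot of control replicate 1, and was 0.72 without that array. For Ern1, the gap between Xbp1 and the sensor was 7.34 and 7.42 in control and 7.89 and 8.02 in KO. Groups of this within-array gap did not overlap for 6 of the 7 genes, the exception being Creb3l1. The exact two-sided permutation p was 0.333 for these 6, the smallest that 2 against 2 can give, and 0.667 for Creb3l1. After Benjamini-Hochberg adjustment over the 7 comparisons the exact permutation p was 0.389 for the 6 and 0.667 for Creb3l1. Direction was the same under all alternatives, with the lowest value, 0.19, for Creb3l1 without control replicate 2. Scalings that shift a whole array by a constant cannot change a gap within that array, so they are no check of it. The same holds for the filters on dim probes, the variance model and the replicate block.

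Genes placed under each branch were read from lists of textbook targets, which were chosen with earlier results of these data known. Their counts beside the shares of all genes are therefore descriptions and no test. These lists do not separate the branches cleanly. The ERSE, bound by ATF6 or XBP1, was found in genes of both the ATF6 and the IRE1-XBP1 list. Herpud1 of the ATF6 list also held the core read by ATF4. In genes taken by their brightest probe, both KO values lay above both controls for 13.8% of all 16524 genes and below them for 32.1%. An unadjusted p under 0.05 was reached by 3.16% of all genes with a higher and 5.65% with a lower signal in KO. No gene of any list passed at a limma adjusted p under 0.05, as 0 of all genes did; the smallest adjusted p among genes was 0.273.

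Genes listed as ATF6 targets were higher in KO as a group, and which branch acts on them was not tested. Of 11 genes, 11 had both KO values above both controls, and 4 had an unadjusted p under 0.05. The median log2 difference was 0.48, against −0.06 over all genes. Derl3, a paralogue of Derl2, read −2.09 and −1.60 in control and −0.23 and −0.49 in KO, and was higher by 1.48 (SE 0.21; limma adjusted p 0.273). Hspa5, which encodes the ER chaperone BiP that also holds the sensors inactive, read 4.69 and 4.78 in control and 5.73 and 5.38 in KO, 1.76-fold. Manf, a secreted neurotrophic factor retained in the ER, read 1.94 and 1.84 in control and 3.0 and 2.43 in KO, 1.77-fold. Calr, a calcium-binding lectin chaperone, was the fourth with an unadjusted p under 0.05 and was 1.39-fold higher. The group's smallest differences were those of Syvn1 and Sel1l, the ubiquitin ligase of ER-associated degradation and its partner, with 0.20 each.

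IRE1-XBP1 targets were less uniform, a contrast that depends on which genes were placed in which list. Of 10 genes, 4 had both KO values above both controls, 1 had them below and 5 overlapped, with a median difference of 0.13. Pdia6, a protein disulfide isomerase, read 4.13 and 4.19 in control and 5.05 and 4.73 in KO. It was higher by 0.73 (SE 0.15; limma unadjusted p 0.0063, adjusted p 0.273) and was the 1 gene of this list with an unadjusted p under 0.05. Edem1, which marks misfolded glycoproteins for disposal, was higher by 0.39 (SE 0.15). Dnajc3, an ER co-chaperone of BiP, read −0.17 and −0.12 in control and 0.67 and −0.08 in KO, so that its difference of 0.44 (SE 0.27) came mostly from KO replicate 1.

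Several textbook XBP1 targets showed little difference beside the higher Xbp1 signal. Dnajb9, a BiP co-chaperone that acts on IRE1, had a difference of −0.004. The translocon subunit Sec61a1 had 0.01, and Serp1, a translocon-associated protein, had −0.02. These 3 genes were picked out after their values were seen. The scaling matters for this group: after scaling to spike-in probes its median was 0.22 and 8 of 10 genes had both KO values above both controls. Under that scaling the same held for 26.1% of all genes, and 16.9% had both KO values below. With quantile normalization it was 8 of 10 against 18.4% of all genes above and 25% below.

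Grouped by promoter, the 8 target genes with an ERSE had a median difference of 0.51, from 0.20 to 1.48, and all 8 had both KO values above both controls. The 10 targets without one in the window had a median of 0.15, from −0.04 to 0.51, and 5 of the 10 had both KO values above both controls. Of all genes, 13.8% had both KO values above both controls. The highest of the 10, Herpud1, held an ERSE-II. The ATF6 targets among the 10, Pdia4, Herpud1 and Sel1l, all had both KO values above both controls, and the rest were IRE1-XBP1 targets. The grouping by promoter thus partly repeats the lists. Hyou1, Manf and Sec61a1 had no promoter sequence and are in neither group. These are descriptions of genes picked as targets, with no test, and the 6 ERSE genes of the ATF6 list are among the 11 counted there.

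Genes of the PERK-eIF2alpha-ATF4 arm were mixed. Of 12 genes, 6 had both KO values above both controls and 1 below, and the median difference was 0.30. With quantile normalization or spike-in scaling it was 9 above and 0 below. With quantile normalization 18.4% of all genes lay above and 25% below, and with spike-in scaling 26.1% and 16.9%. An unadjusted p under 0.05 was reached by 3 of them. Trib3, a pseudokinase induced by ATF4 and CHOP, read −1.18 and −0.14 in control and 0.95 and 0.56 in KO. Chac1, an enzyme that degrades glutathione, read 0.58 and 1.80 in control and 2.47 and 2.39 in KO. For both, the controls lay farther from each other than the higher control lay from the nearest KO value. Atf3, a stress-induced factor, read −3.28 and −3.35 in control and −1.87 and −2.63 in KO, and was higher by 1.07 (SE 0.28; limma adjusted p 0.287). The cystine transporter Slc7a11 was the gene with both KO values below both controls. It read −0.53 and −0.55 in control and −1.12 and −0.55 in KO, so that only KO replicate 1 was clearly lower. Without control replicate 1 the median of the list was 0.10.

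The other lists stayed near the bulk of the array. Of 6 mRNAs that IRE1 is known to cut, 3 had both KO values below both controls (background 32.1%), with a median of −0.15. These 3 were Scara3, a scavenger receptor, with a difference of −0.26 (SE 0.11), the collagen gene Col6a1 with −0.16 and Bloc1s1, the classical substrate, with −0.14. Hgsnat, a lysosomal enzyme, had −0.17 with overlapping groups. Of 14 processing and signalling partners, 2 were separate and higher (14.3%, against 13.8% of all genes). Another 4 were separate and lower (28.6%, against 32.1% of all genes), and the median of the list was −0.04. Eif2ak1, another kinase of eIF2alpha, was lower with −0.29 (SE 0.11; limma unadjusted p 0.049, adjusted p 0.355). Tmbim6, an ER membrane protein that restrains IRE1, differed by −0.22, as did Zbtb8os, which assists the ligase that joins Xbp1 exons. That ligase, Rtcb, differed by −0.04.

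Targets and relatives of the CREB3 family had a median of −0.01 over 9 genes. Of these, 1 was separate and higher (11.1%, against 13.8% of all genes) and 1 separate and lower (11.1%, against 32.1%). Crebzf, a partner that binds CREB3, was the one above, with 0.41 (SE 0.20; limma adjusted p 0.430). Crebrf, a negative regulator of CREB3, read −1.47 and −1.92 in control and −2.08 and −1.89 in KO, with overlapping groups. Creb3l4 also overlapped, with a difference of −0.35 (SE 0.25). Medians of the partner list and of this list changed sign with spike-in scaling, to 0.05 and 0.08.

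**Figure D3:**
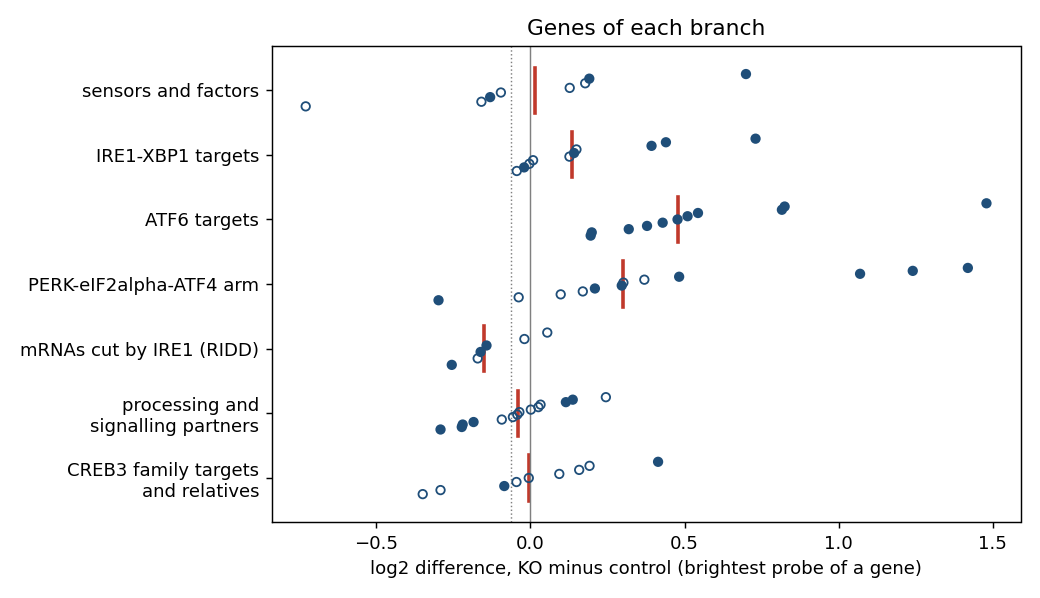
KO minus control log2 difference of each gene (brightest probe) for the 8 sensors and factors and the 6 target and partner lists. Filled points have both KO values on one side of both controls, open points overlap, red bars are list medians, and the dotted line is the median of all genes, −0.06; all 11 ATF6 targets are filled and to the right of 0.

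The KO samples also differed from each other, and for most targets KO replicate 1 was the higher one. Against the control mean, Xbp1 was higher by 0.79 in KO replicate 1 and by 0.61 in KO replicate 2 on its brightest probe. For ATF6 targets the medians were 0.75 and 0.28, and 11 of 11 genes were higher in KO replicate 1 than in KO replicate 2. For IRE1-XBP1 targets they were 0.17 and 0.01, with 8 of 10 genes higher in KO replicate 1. In the PERK-eIF2alpha-ATF4 arm they were 0.47 and 0.20, with 8 of 12 genes higher in KO replicate 1. Leaving out KO replicate 2 gives the same 0.75 for ATF6 targets, and leaving out KO replicate 1 the same 0.28, so neither adds support. This contrast between the KO samples was not tested, since each is 1 array.

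**Figure D4:**
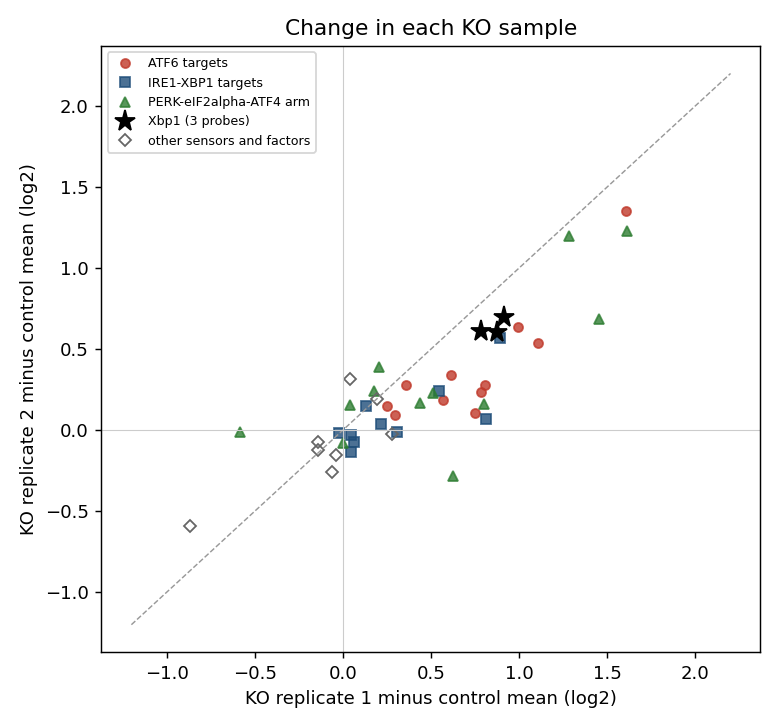
Log2 difference from the control mean in KO replicate 1 (horizontal axis) and KO replicate 2 (vertical axis) for Xbp1 (stars), the other members (diamonds) and the genes of 3 target lists; the dashed line marks equal change. All 11 ATF6 targets lie below the line, and Xbp1 on its brightest probe is at 0.79 and 0.61.

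Markers of the cells in the tissue were read beside these results. Purkinje and granule cell markers were bright on every array, with summed signals between 9.21 and 9.28 and between 7.90 and 7.97 on the log2 scale, as the cerebellum label implies. The Purkinje marker Car8, which weighs little in that sum, was uneven. It read 3.99 and 3.13 in control and 1.02 and 3.78 in KO, so that KO replicate 1 was lowest. Counts of markers with a lower mean in KO are to be read against 63.9% of all genes. They were 4 of 5 for Purkinje cells, for granule cells and for astrocytes and Bergmann glia, 3 of 4 for endothelium and 6 of 6 for choroid plexus. Oligodendrocyte markers were lower in KO for 5 of 5 genes, with sums of 8.29 and 8.22 in control and 8.05 and 8.18 in KO. Microglia markers were lower for 5 of 5, with 4.0 and 3.94 against 3.63 and 3.85. Meningeal markers were lower for 3 of 4, with 4.05 and 4.08 against 3.63 and 3.94. In each of these 3 lists KO replicate 1 had the lowest sum, the sample in which the ATF6 targets were highest. Red blood cell markers were highest on control replicate 2 for 3 of 3 kept genes, with a sum of 8.43 there and between 7.85 and 7.88 elsewhere. Endothelial sums lay between 3.95 and 4.20, astrocyte and Bergmann glia sums between 6.39 and 6.56, and 1 of 4 markers of the hindbrain outside the cerebellum was kept. The part of these cell types in the target lists was not tested; for Xbp1, the values without each control are given above.

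The genes whose profile over the 4 arrays was most like that of Xbp1 were sought among 16058 genes well above background on all arrays, by the root mean square distance after subtracting the control mean. They were Rabgap1 (0.030), Klra1 (0.031), A230057D06Rik (0.038), Shoc2 (0.045) and 1700030M09Rik (0.047). None of these is on the ER lists. For comparison, the dimmer Xbp1 probes lay at 0.094 and 0.055 from the brightest one. The nearest genes were Stxbp2, Kcnb2 and Adcy6 for Ern1, Gbp9, Itsn1 and Ppp2r3a for Eif2ak3, and Abcb10, Cdk9 and Slc23a2 for Atf6, at distances from 0.003 to 0.017. With 4 arrays such likeness is a description of these samples only.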

How the data were processed

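Per the file headers, the deposited scanner files were written by Feature Extraction 12.1.1.1, while the submitters' processing notes name 10.7.1.1. The processed signal in them is an intensity from which the scanner software had removed background and spatial trends; it came from 150 ng of Cy3-labelled RNA per the labels. The authors' deposited series table holds log2 values, which equalled log2 processed signal shifted by a constant per array and centred per probe on an unknown value; its direction followed the scanner values and its column medians ran from −0.22 to 0.0071.

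Control spots and outlier spots were left out, spots of a probe averaged in log2, and each array's 75th percentile subtracted. A probe was kept if both arrays of either group called it well above background (37516 of 56605; 16524 genes by brightest probe). Of 35886 probes with a RefSeq accession, 32994 were named through a RefSeq table of GRCm38.p6. KO and control were compared with limma 3.58.1 in R 4.3.3 (lmFit, eBayes, no covariates), with Benjamini-Hochberg adjustment over all kept probes and a threshold of 0.05. The fit had 4.35 degrees of freedom, so only large differences can pass, and the number of arrays limits precision. The script was tested on simulated data. Alternatives were other scalings, background correction and filters, the variance model, the replicate number as a block and each array left out. The files have no mean spot column, so normexp used the median spot intensity with an offset of 50.

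The members and lists were chosen with earlier results of these data known. Named were all members, the 3 genes of each list with the smallest p, those needed to describe a list and the nearest genes by profile.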

Additional observations from a re-analysis of the deposited data

How the results depend on the processing

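All values here are log2 differences or counts of probes. The count of probes past the adjusted limma threshold, 0, became 1 under each of quantile normalization, scaling to spike-in probes, scaling to the median of bright probes, and omission of patch spots. It was 2 with normexp and 4 with an intensity trend and robust variances, and 0 to 98 with 1 array left out, the 98 without control replicate 2; the brightest probe of no member was among those called. The count with an unadjusted p under 0.05, 5265, ran from 2912 (without control replicate 1) to 4524 with 1 array left out. With 1 array left out, Ern1 ran from −0.023 to 0.28, Creb3l1 from −0.13 to 0.49 and Creb3l2 from −1.46 to 0.0032; these 3 changed sign, without KO replicate 1 for Ern1 and without control replicate 1 for the others. Each such fit takes the spread of the remaining pair for the single array as well. The 5 other members and the 7 gaps to Xbp1 kept their sign under every alternative run. A constant shift of an array cannot move such a gap. The filters on dim probes, the variance model and the replicate block can move neither a gap nor a member's difference. List medians with 1 array left out ran from 0.013 to 0.17 (IRE1-XBP1), 0.28 to 0.75 (ATF6), 0.10 to 0.48 (PERK arm), −0.16 to −0.10 (mRNAs cut by IRE1), −0.088 to 0.023 (partners) and −0.11 to 0.064 (CREB3 family). Quantile normalization put the mRNAs cut by IRE1 at −0.099. Spike-in scaling, which moved the median of all probes by 0.088, gave medians of 0.22 for IRE1-XBP1 targets, −0.064 for mRNAs cut by IRE1, 0.049 for partners and 0.083 for the CREB3 family. The replicate block gave 0 adjusted and 6051 unadjusted calls and an adjusted p of 0.272 for Xbp1. Replicate numbers share only a number here (r of the deviations 0.12 over probes), and it changed no call of a member. Each member probe has 1 spot per array, so no spread between spots stands behind a value.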
